A study of Mus musculus with 8 samples.

Results

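Nxph1 was followed with 7 relatives and binding partners in mouse brain RNA: the neurexophilins Nxph3 and Nxph4, the neurexins Nrxn2 and Nrxn3, and the neuroligins Nlgn1, Nlgn2 and Nlgn3. The 8 genes are among 57186 genes listed in the count files, and all 8 were among the 16766 genes with enough reads to be tested. They were chosen because the level of Nxph1 was lower in every Akap11 conditional knockout (cKO) library, and because the other 7 belong to the same ligand and receptor families. The difference in Nxph1 is therefore described here with no test.

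Neurexins are presynaptic membrane proteins that recruit the release machinery and reach across the cleft to postsynaptic partners. Each neurexin gene gives a long alpha form and a short beta form from separate promoters, which gene-level counts do not separate. Neurexophilins are small secreted glycoproteins that bind alpha-neurexins tightly, and neuroligins are the classical postsynaptic receptors of neurexins. In the forebrain Nxph1 is known as a gene of inhibitory interneurons. Nlgn1 is known at excitatory synapses, Nlgn2 at inhibitory synapses and Nlgn3 at both.

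Total RNA was sequenced from 4 libraries of control mice and 4 libraries of AKAP11 conditional knockout animals. AKAP11 is an A-kinase anchoring protein that tethers protein kinase A. The labels give the tissue as "brian", taken here as brain, and no region. Sources used here do not give the recombinase line or its promoter, the deleted exons, the genotype of the controls, strain, age or sex. Whether the 4 replicates of a group came from 4 animals is also not stated, and p-values then cover only the spread among libraries, which may be technical.

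Libraries held 13841218 to 19991942 reads in genes. Akap11 averaged 323 ± 35.3 CPM (CPM being reads scaled to a common library size with TMM factors; SD, n = 4) in control and 228 ± 12.7 CPM in cKO libraries, with every cKO library below every control library. Its log2 fold change was -0.50 (SE 0.069, edgeR adjusted p 0.0103). With control replicate 2 left out the log2 fold change was -0.52 (edgeR adjusted p 0.0616), and with cKO replicate 2 left out it was -0.47 (edgeR adjusted p 0.104). Either omission ended the call at a fold of like size. The library of cKO replicate 1 stood apart on the first principal component, and in it 63.8% of listed reads lay in genes against 73.7% to 79.7% elsewhere. Control replicate 1 stood apart on the second component. For the members, and for many list genes whose values moved by over 1.5 times, values without 1 or both of these libraries are given beside the results. Markers of excitatory neurons summed to 4880 to 5620 CPM in control and 4890 to 5410 CPM in cKO libraries. Transcripts of cerebellar granule cells were uneven between libraries. Gabra6, which did not pass the filter on low counts, was at 4.52 CPM in control replicate 2 and at most 0.924 CPM elsewhere. Cbln3 was at 13.2 CPM in control replicate 2, 3.91 CPM in cKO replicate 4 and at most 1.28 CPM elsewhere. Nxph1 had a log2 difference of -0.41 with and without control replicate 2, but the fit without it kept cKO replicate 4. The part of the uneven cerebellar transcripts in the members' values was not tested.

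The neurexophilin coding sequences show how far reads of these paralogs can be told apart. The stretch of 60 bases most alike in the 4 mouse genes is printed below from GENCODE vM21 transcripts, which are annotated on GRCm38, with the 39 bases shared by all 4 in capitals. It lies at coding positions 742 to 801 of Nxph1, 712 to 771 of Nxph2, 685 to 744 of Nxph3 and 847 to 906 of Nxph4, counted from the A of the start codon.
Nxph1: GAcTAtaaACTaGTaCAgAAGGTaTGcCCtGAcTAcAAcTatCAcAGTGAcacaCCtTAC
Nxph2: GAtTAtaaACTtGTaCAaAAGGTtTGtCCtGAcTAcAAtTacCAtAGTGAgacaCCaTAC
Nxph3: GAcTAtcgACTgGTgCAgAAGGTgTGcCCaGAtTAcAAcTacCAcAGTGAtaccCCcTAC
Nxph4: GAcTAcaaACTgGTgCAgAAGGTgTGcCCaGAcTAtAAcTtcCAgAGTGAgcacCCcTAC
Over the whole coding sequence Nxph1 shared 63.6% of aligned bases with Nxph3 and 59.9% with Nxph4. Its longest identical run was 17 bases with Nxph3 and 11 bases with Nxph4. The longest identical run among the other members was 24 bases, between Nxph3 and Nxph4, and it was 23 bases between Nrxn2 and Nrxn3. No pair of members was thus near-identical in its coding part. Exons of Nrxn2, Nrxn3, Nlgn1 and Nlgn3 overlap other genes, which held 366, 3, 176 and 48 reads in all over the 8 libraries.

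Per kilobase of exon, Nlgn2 was the most abundant of the 8 transcripts and Nlgn3 the least. Levels averaged over all 8 libraries were 59.5 ± 3.93 CPM per kilobase (SD, n = 8) for Nlgn2, 27.0 ± 1.66 for Nrxn2 and 18.2 ± 1.70 for Nrxn3. The neurexophilins followed, with Nxph3 at 15.5 ± 0.887 and Nxph1 at 7.89 ± 1.21 CPM per kilobase. Nlgn1 stood at 5.86 ± 0.576, Nxph4 at 4.83 ± 0.810 and Nlgn3 at 4.69 ± 0.575 CPM per kilobase. The ranges over libraries were apart between Nlgn2 and Nrxn2, between Nrxn2 and Nrxn3, and between Nxph3 and Nxph1. They overlapped between Nrxn3 and Nxph3 and between each pair of neighbours from Nxph1 down to Nlgn3. The lengths are exonic lengths of GENCODE vM21, so a transcript that uses few of its annotated exons reads low on this scale. The remaining neurexophilin, Nxph2, was near the bottom of the measurable range at 1.03 CPM per kilobase, with 31 to 62 reads per library.

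Nxph1 (ENSMUSG00000046178, chromosome 6), the secreted alpha-neurexin ligand, stood at 44.8, 42.5, 41.1 and 42.8 CPM in control replicates 1 to 4 and at 31.8, 32.1, 33.4 and 31.5 CPM in cKO replicates 1 to 4. The groups did not overlap, and 7.68 CPM separated the highest cKO library from the lowest control library. The means were 42.8 ± 1.51 and 32.2 ± 0.847 CPM (SD, n = 4), a log2 difference of -0.41 (SE 0.068) or a ratio of 0.753. These levels rest on 440 to 852 Nxph1 reads per library. The spread of 3.52% among control and 2.63% among cKO libraries was no wider than the 3.65% and 4.19% that counting such numbers of reads would give by itself. With library totals in place of TMM the gap was 7.36 CPM. As Nxph1 was chosen for being lower in every cKO library, groups that lie apart are no check of the difference. In bulk tissue, fewer cells that express a gene and less of its RNA per cell cannot be told apart.

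**Figure D1:**
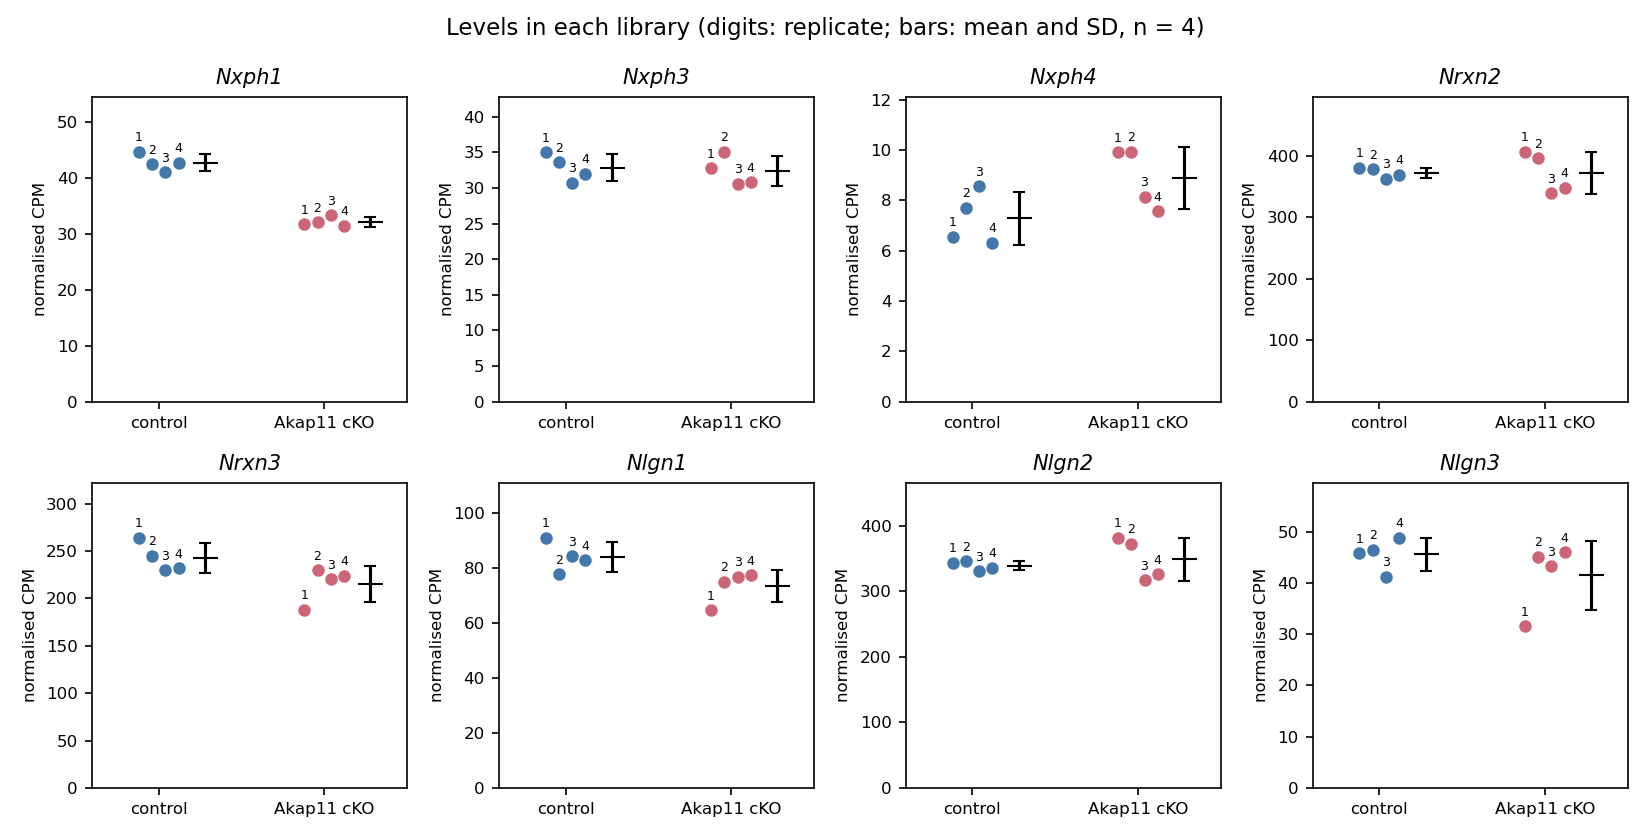
Normalised CPM (vertical axis, from 0) of the 8 genes in each control and cKO library, with digits for the replicate number and bars for the mean and SD of 4 libraries. The Nxph1 libraries form separate groups at 41.1 to 44.8 and 31.5 to 33.4 CPM, while the Nxph3, Nxph4, Nrxn2, Nlgn2 and Nlgn3 groups overlap.

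Of the other 7 members, 0 passed the edgeR test over all genes, in which 4 of 16766 genes (0.0239%) were called, 0.0119% as lower and 0.0119% as higher in cKO. At an unadjusted p under 0.05, edgeR, DESeq2 and limma voom each found 2 of the 7, Nrxn3 and Nlgn1, both lower in cKO. By edgeR, 4.78% of all genes reached that level, 1.91% as lower and 2.87% as higher. The same 2 genes had groups that did not overlap, lower in cKO, as had 1.39% of all genes; 1.57% did not overlap with cKO higher, 2.96% in all. With offsets for GC content (the share of G and C bases in a transcript) fitted per library, edgeR found 3 of the 7 lower at that level, Nrxn2, Nrxn3 and Nlgn1. Without control replicate 1 and cKO replicate 1 together it found 0 of the 7. The shares of all genes above come from the edgeR fit of all libraries without offsets. None is given for the fits with offsets or with libraries left out. The median log2 fold change of the 7 was -0.02, beside 0.0034 over all genes tested, and 5 of the 7 were negative. With the GC-content offsets that median was -0.12 and the median over all genes -0.01.

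Neither measured paralog among the members was called. Nxph3 (ENSMUSG00000046719, chromosome 11), which also binds alpha-neurexins, stood at 35.0, 33.6, 30.7 and 32.0 CPM in control and at 32.8, 35.1, 30.6 and 30.8 CPM in cKO libraries. The groups covered nearly the same range, with means of 32.9 ± 1.88 and 32.3 ± 2.09 CPM (SD, n = 4). The log2 fold change was -0.02 (SE 0.077, 95% interval -0.18 to 0.14, edgeR adjusted p 0.970). It was -0.12 with GC-content offsets (unadjusted edgeR p 0.123) and 0.01 with control replicate 1 left out.

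Nxph4 (ENSMUSG00000040258, chromosome 10), the neurexophilin with the fewest reads among the members (107 to 197 per library), had higher means in cKO. Its levels were 6.55, 7.71, 8.57 and 6.32 CPM in control and 9.91, 9.94, 8.14 and 7.56 CPM in cKO libraries. Replicates 1 and 2 of the cKO group lay above all controls and the other 2 lay within their range. The log2 fold change was 0.28 (SE 0.14, 95% interval -0.002 to 0.57, edgeR adjusted p 0.889). It was 0.18 with GC-content offsets, 0.23 without cKO replicate 1 and 0.19 without that library and control replicate 1. Nxph2, with control libraries at 2.75 ± 0.428 CPM and cKO libraries at 2.55 ± 0.482 CPM, had a log2 fold change of -0.11 (SE 0.20), too imprecise to read at this depth.

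Within the neurexophilins, the share of Nxph1 reads was accordingly smaller in cKO. Of 100 reads of Nxph1, Nxph3 and Nxph4 together, 51.6 ± 0.879 came from Nxph1 in control and 43.9 ± 2.14 in cKO libraries (SD, n = 4). The control libraries held 50.7 to 52.7 and the cKO libraries 41.7, 42.7, 45.1 and 46.3. This share contains the Nxph1 values by which the genes were chosen and carries no test.

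Neurexins are the receptors of Nxph1. Nrxn3 (ENSMUSG00000066392, chromosome 12) gave 264, 245, 230 and 232 CPM in the controls and 188, 230, 220 and 224 CPM in the cKO group. All cKO libraries lay below all controls, but the highest cKO library (229.7 CPM) and the lowest control (229.9 CPM) were 0.190 CPM apart, and cKO replicate 1 was the lowest by far. Its log2 fold change, -0.17 with a SE of 0.066 and a 95% interval from -0.31 to -0.03, missed the threshold at an edgeR adjusted p of 0.889. It was -0.12 without cKO replicate 1 and -0.07 without that library and control replicate 1.

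Nrxn2 (ENSMUSG00000033768, chromosome 19) stood at 381, 378, 363 and 369 CPM in control libraries, a narrow range, and at 407, 396, 339 and 348 CPM in cKO libraries. Of the cKO libraries, replicates 1 and 2 lay above the controls and replicates 3 and 4 below them. The means were 373 ± 8.30 and 372 ± 34.0 CPM (SD, n = 4), and on the log2 scale they differed by -0.0013 (SE 0.062, 95% interval -0.13 to 0.13, edgeR adjusted p 0.997). The log2 fold change was 0.01 with library totals and -0.12 with GC-content offsets. It was -0.05 without cKO replicate 1 and -0.03 without that library and control replicate 1. Longest transcripts of Nrxn2 and Nrxn3 contain 62.4% and 47.5% G and C. The part of base composition in the values of single libraries was not tested beyond these offsets.

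Among the postsynaptic neuroligins, Nlgn1 (ENSMUSG00000063887, chromosome 3), known from excitatory synapses, had a pattern near that of Nrxn3. Its levels were 90.9, 77.6, 84.2 and 82.7 CPM in control and 64.5, 75.0, 76.8 and 77.2 CPM in cKO libraries. The groups were 0.453 CPM apart, and with library totals they overlapped. For Nlgn1 the log2 difference was -0.19, its SE 0.069 and its 95% interval -0.34 to -0.05, at an edgeR adjusted p of 0.889. It was -0.14 without cKO replicate 1, the lowest library, and -0.09 without that library and control replicate 1, the highest.

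Nlgn2 (ENSMUSG00000051790, chromosome 11), the neuroligin of inhibitory synapses, was measured with 5284 to 7401 reads per library. It stood at 344, 346, 331 and 336 CPM in control and at 382, 373, 317 and 326 CPM in cKO libraries. As for Nrxn2, cKO replicates 1 and 2 lay above the controls and cKO replicates 3 and 4 below. The log2 fold change was 0.04 (SE 0.063, 95% interval -0.09 to 0.17, edgeR adjusted p 0.925), and it became -0.06 under GC-content offsets and -0.01 when cKO replicate 1 was omitted. The longest Nlgn2 transcript contains 60.7% G and C.

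Nlgn3 (ENSMUSG00000031302, chromosome X) stood at 45.8, 46.5, 41.2 and 48.8 CPM in control and at 31.5, 45.1, 43.2 and 46.0 CPM in cKO libraries. Only cKO replicate 1 lay below the control range. The log2 fold change was -0.13 (SE 0.097, 95% interval -0.33 to 0.07, edgeR adjusted p 0.889), and -0.03 without that library. In GENCODE vM21, 3823 of the 9271 exonic bases of Nlgn3 are shared with the gene Gm21986 on the same strand. Reads that fall on 2 genes are listed as ambiguous where the annotation used holds both, and cKO replicate 1 had the highest ambiguous share, 10.1% of its listed reads against 5.14% to 6.16% elsewhere. The part of this in the Nlgn3 value was not tested.

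The 95% interval of the Nxph1 difference ran from -0.55 to -0.27. Those of Nlgn1, Nlgn3 and Nrxn3, with lower bounds of -0.34, -0.33 and -0.31, overlapped it, and those of Nxph3, Nxph4, Nrxn2 and Nlgn2 lay above it. Nxph1 was chosen from this contrast, which favours a low value for it, so the intervals are a description. The difference between Nxph1 and each other member was not tested.

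**Figure D2:**
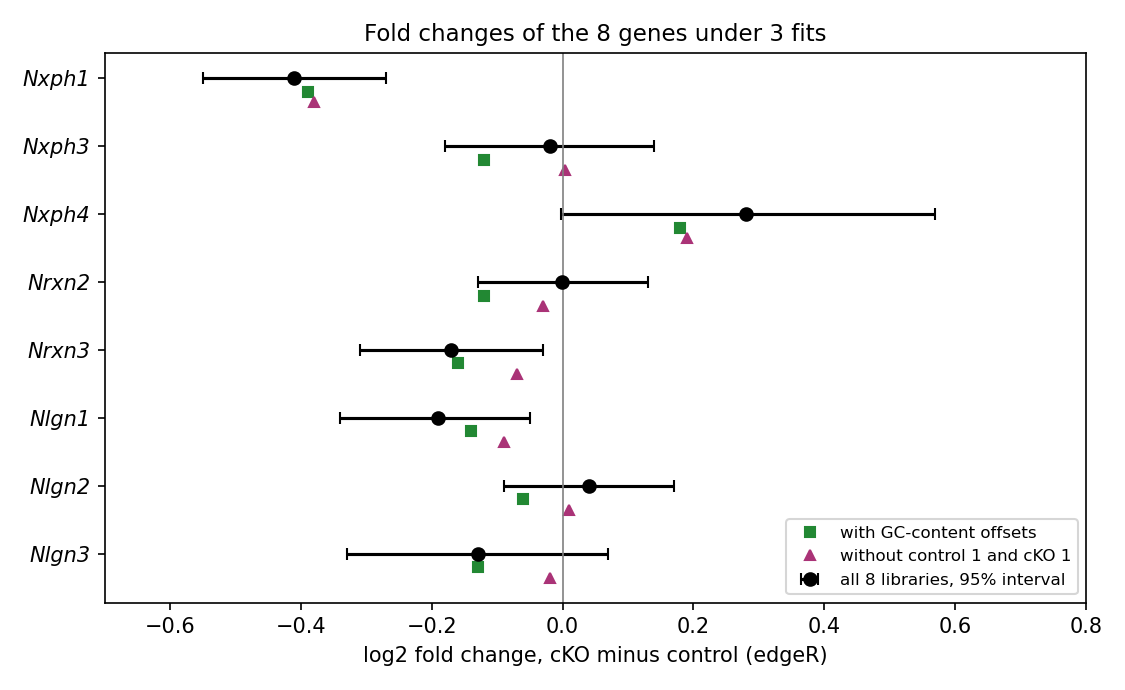
Log2 fold change, cKO minus control (horizontal axis), of the 8 genes by edgeR with 95% intervals (black), with GC-content offsets (squares) and without control replicate 1 and cKO replicate 1 (triangles). Nxph1 is at -0.41, -0.39 and -0.38. Without the libraries numbered 1, Nrxn3 moves from -0.17 to -0.07 and Nlgn1 from -0.19 to -0.09. Nxph1 was chosen as lower in every cKO library, so its steadiness beside the other genes is a description.

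Nxph1 was then read against genes of the cells that make it. Of 19 interneuron markers, 0 passed by edgeR over all genes, 9 had positive and 10 negative log2 fold changes, and the median was -0.0035. Their summed level was 2110 to 2220 CPM in control and 2080 to 2140 CPM in cKO libraries, and each was detected with over 3 reads. Gad1 and Gad2, the enzymes of GABA synthesis, differed by -0.05 (SE 0.055) and by -0.10 (SE 0.064) on the log2 scale, and Slc32a1, the vesicular GABA transporter, by 0.11 (SE 0.074). Without both libraries numbered 1 they differed by -0.03, -0.03 and 0.05, and with GC-content offsets Slc32a1 differed by -0.01. Lhx6, a transcription factor of interneurons from the medial ganglionic eminence, averaged 20.2 ± 1.14 CPM over the controls and 20.2 ± 1.33 CPM over the cKO libraries (SD, n = 4).

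The subtype markers Pvalb, Sst and Vip had log2 fold changes of -0.06, 0.11 and 0.06, and of -0.04, 0.09 and 0.03 without both libraries numbered 1. Reln, a secreted glycoprotein of interneurons, was the single gene of the list whose groups did not overlap. Its cKO libraries lay at 73.2 to 76.2 CPM and its control libraries at 80.4 to 98.5 CPM. Of all genes, 1.39% had groups apart with cKO lower, and 1.91% were lower at an unadjusted edgeR p under 0.05. The Reln difference of -0.20 (SE 0.068) had an unadjusted p of 0.00919 and an edgeR adjusted p of 0.889. It was -0.13 without control replicate 1 and cKO replicate 1.

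Counted per 100 reads of Gad1 and Gad2, Nxph1 gave 5.33, 5.41, 5.27 and 5.42 reads in control and 4.30, 4.44, 4.22 and 3.98 reads in cKO libraries. The groups were apart on this scale too, with a ratio of means of 0.790. Per 100 reads of Lhx6 the values were 205 to 220 in control and 146 to 176 in cKO libraries, a ratio of 0.756. Per 100 reads of all 19 interneuron markers the ratio was 0.763, and per 100 reads of Nrxn2 and Nrxn3 it was 0.790. Nxph1 was thus lower relative to interneuron markers and to its receptors in the same libraries, as a description of values that chose the gene.

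**Figure D3:**
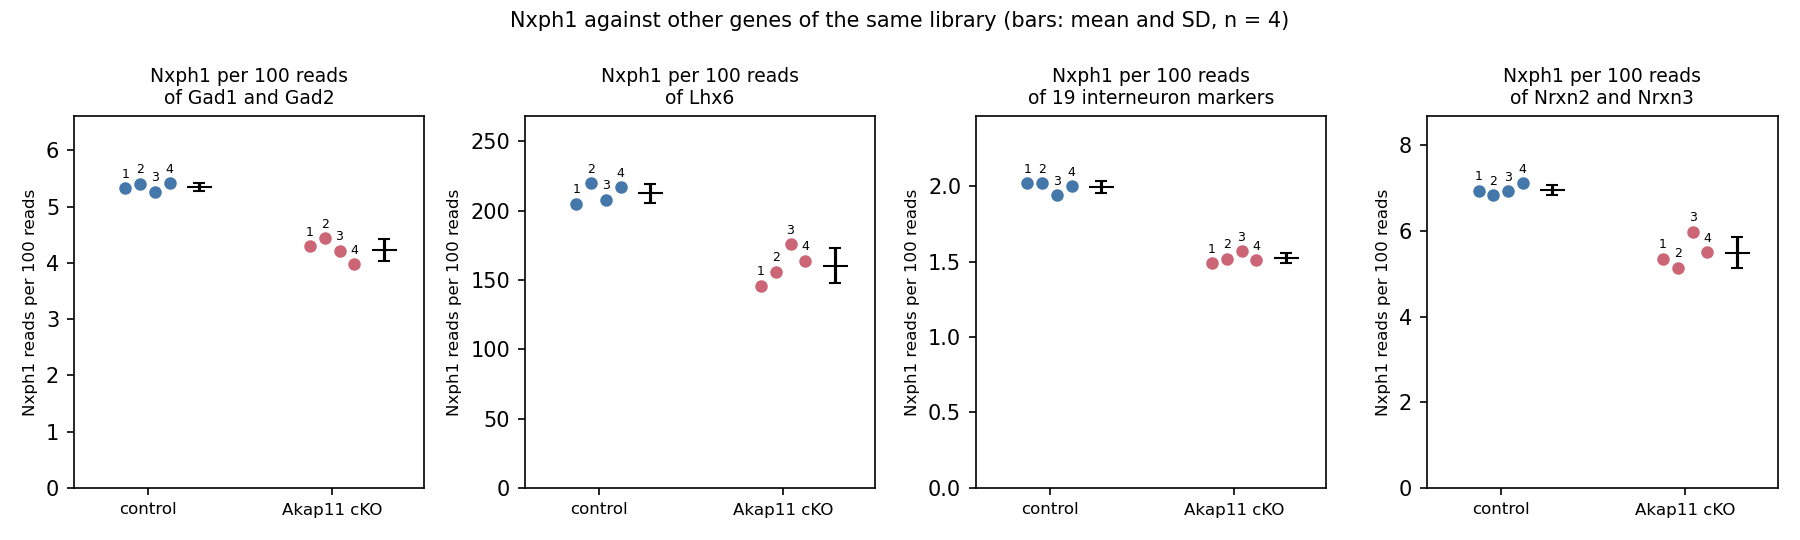
Nxph1 reads per 100 reads of other genes of the same library (vertical axes, from 0) in control and cKO libraries, with digits for replicates and bars for the mean and SD of 4 libraries. In each of the 4 panels the cKO libraries lie below the control libraries, for instance 3.98 to 4.44 against 5.27 to 5.42 per 100 reads of Gad1 and Gad2.

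Of the wider neurexin and neuroligin network, 67 partner genes in 5 lists were all tested and 0 passed by edgeR, DESeq2 or limma voom. At an unadjusted p under 0.05 each of the 3 tools found 1, Car11, higher in cKO. By edgeR with all libraries and no offsets, 4.78% of all genes reached that level, 1.91% as lower and 2.87% as higher. Such shares are not given for the fits that follow. With GC-content offsets edgeR found 0 higher and 2 lower, Cadm2 and Tenm2. Without cKO replicate 1 it found Car11 higher and Tenm4 and Adgrl3 lower, and without both libraries numbered 1 it found 0. The median log2 fold change of the 67 was -0.04, with 26 positive and 41 negative, and it was 0.00085 without control replicate 1 and cKO replicate 1.

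The 21 extracellular neurexin ligands and partners had a median log2 fold change of 0.01, with 12 positive. Car11, a carbonic anhydrase-related protein that binds neurexins, ranged from 122 to 142 CPM in control and from 140 to 161 CPM in cKO libraries, with overlapping groups. Its log2 fold change was 0.19 (SE 0.068, unadjusted p 0.0126, edgeR adjusted p 0.889), 0.09 with GC-content offsets and 0.12 without both libraries numbered 1. The postsynaptic leucine-rich repeat proteins Lrrtm2 and Lrrtm4 had -0.14 (SE 0.076) and -0.18 (SE 0.11), and Igsf21, a neurexin partner of inhibitory synapses, had 0.13 (SE 0.084). Without both libraries numbered 1, Lrrtm2 stood at -0.04, and without cKO replicate 1 Lrrtm4 stood at -0.11. For Igsf21, GC-content offsets gave 0.01 and omitting cKO replicate 1 gave 0.07.

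The 7 presynaptic scaffolds that bind neurexin tails had a median of -0.04, with 6 negative. Lin7a and Lin7c, which form a complex with the kinase-like scaffold Cask, had -0.16 (SE 0.091) and -0.13 (SE 0.095), Cask itself -0.07 (SE 0.062) and Sdcbp, encoding syntenin, -0.04 (SE 0.054). Without control replicate 1 and cKO replicate 1, Lin7a stood at -0.05, Lin7c at 0.00054, Cask at 0.00075 and Sdcbp at -0.01, and with GC-content offsets Sdcbp stood at 0.01.

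The 7 neuroligin partners had a median of -0.04, with 5 negative. Mdga2, which covers neuroligins and blocks neurexin binding, had -0.09 (SE 0.073). The scaffold gene Magi2 had -0.05 (SE 0.057) and Lhfpl4, a partner of Nlgn2 and GABA receptors, -0.04 (SE 0.056). Without both libraries numbered 1 the values were -0.02, -0.01 and -0.02, and Lhfpl4 stood at -0.10 with GC-content offsets.

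Genes that splice or cleave these proteins had a median of -0.03 over 6. The protease genes Adam10 and Mmp9 had -0.11 (SE 0.076) and -0.12 (SE 0.25), and Khdrbs3, a splicing regulator of neurexin transcripts, -0.07 (SE 0.068). Without both libraries numbered 1 they stood at 0.01, -0.25 and -0.01. Among 26 other synaptic adhesion genes the median was -0.07, with 18 negative. Adgrl3, a latrophilin, was the single partner gene whose groups did not overlap (lower in cKO, as for 1.39% of all genes), at 88.1 to 91.4 CPM in cKO against 93.1 to 115.6 CPM in control libraries. It had -0.14 (SE 0.069, edgeR adjusted p 0.889), and -0.06 without both libraries numbered 1. Tenm1, Flrt3 and Lrrc4b had -0.19 (SE 0.097), -0.16 (SE 0.080) and 0.16 (SE 0.079). Without both libraries numbered 1 they stood at -0.11, -0.09 and 0.09. Omitting control replicate 4 alone put Tenm1 at -0.29 and omitting control replicate 1 alone put it at -0.08. For Lrrc4b, GC-content offsets gave 0.03 and omitting cKO replicate 1 gave 0.06.

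**Figure D4:**
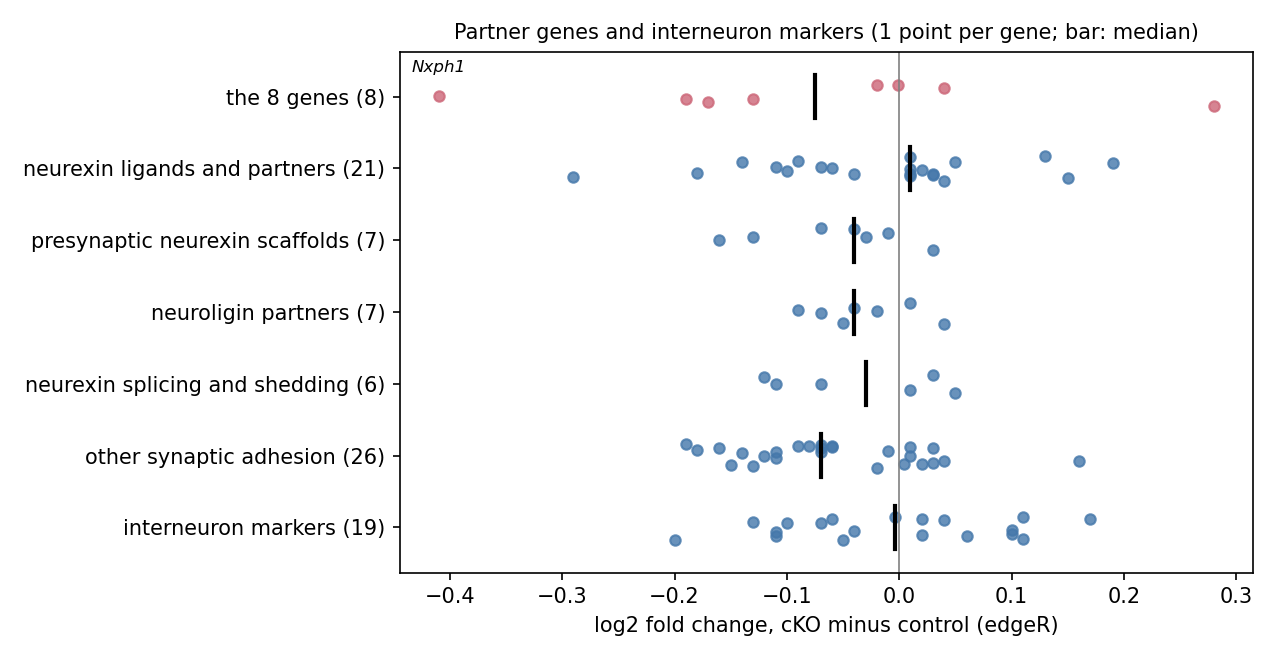
Log2 fold change, cKO minus control (horizontal axis), of the 8 genes, the 5 partner lists and the interneuron markers, with 1 point per gene, the number of genes in brackets and a bar for the median. Nxph1 at -0.41 lies left of all other points, while the list medians lie between -0.08 and 0.01.

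Over the 8 libraries, the genes whose course was most like that of Nxph1 were Ppp1r3e, Trps1, Akap11, P2ry12 and Zfp870. Likeness was the root mean square difference of log2 CPM, each gene relative to its own control mean, and was 0.089 for Ppp1r3e and 0.11 to 0.13 for the others, among 10092 genes with a mean of at least 10 CPM. Ppp1r3e, a regulatory subunit of protein phosphatase 1, averaged 12.1 ± 0.712 CPM over the controls and 9.49 ± 0.696 CPM over the cKO libraries (SD, n = 4). Trps1, a zinc finger repressor, stood at 33.5 ± 1.86 and 26.8 ± 2.17 CPM. P2ry12, a purine receptor of microglia, stood at 33.3 ± 2.66 and 27.8 ± 1.56 CPM. In the same order Nlgn1 came 50th with 0.17 and Nrxn3 98th with 0.19. Nlgn3 came 1419th, Nxph3 3492nd with 0.28, Nrxn2 4713th and Nlgn2 6507th, while Nxph4 was below the limit on CPM. Of the named interneuron markers Reln came 35th with 0.17. The others lay further off, with Gad2 953rd, Gad1 2267th, Pvalb 3676th, Lhx6 4502nd, Vip 7058th, Sst 8485th and Slc32a1 8504th. As genes lower in every cKO library come first by construction, the order is a description.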

How the data were processed

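Each library came as a deposited table of raw integer counts, 1 value per Ensembl gene. Per the submitters' processing notes, HISAT2 and build GRCm39 were used. The sources used here give no counting program, strand setting or annotation, so antisense partners cannot be told apart. The 5 entries that name no gene held 20.3% to 36.2% of reads and stayed out. Symbols, exonic lengths, GC content and coding sequences came from GENCODE vM21 (GRCm38), with no coordinates carried over and RefSeq synonyms for renamed genes. Counts were filtered with filterByExpr, scaled by TMM and tested in R 4.3.3 by edgeR 4.0.16, quasi-likelihood F test (robust, group as the only term; Benjamini-Hochberg over all genes, threshold 0.05). Intervals are 95%. Alternatives were DESeq2 1.42.0, limma 3.58.1 voom, DESeq2 size factors, library totals, GC-content offsets, 2 other low-count filters, the replicate block, and fits with 1 library or with both libraries numbered 1 left out. Fits were tested on simulated data. Coding sequences were aligned with mafft 7.526 and Biopython 1.88.

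The members and lists were chosen with earlier results of these data known. The rule for names took the members, Akap11, Nxph2, up to 4 genes of lowest p per partner list, 8 interneuron markers and 5 genes most like Nxph1; marker genes of other lists were named after their values were seen. Some genes that the rule takes are not reported here.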

Additional observations from a re-analysis of the deposited data

Results flagged for a closer look

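In 2 of 20 groups of 4 libraries, 1 library lay far from the other 3, where chance gives about 1 in 20. The Nlgn1 level was 64.5 CPM in cKO replicate 1 against 75.0 to 77.2 CPM in the other cKO libraries. The Nxph2 level was 3.26 CPM in cKO replicate 4 against 2.24 to 2.41 CPM in the other cKO libraries, at 60 reads in that library.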

How the results depend on the processing

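The count of 0 called members other than Nxph1 and the count of 0 called partner genes were the same in all 17 alternatives. Nxph1 ranged from -0.43 to -0.38, a description, as it was chosen for being lower in every cKO library. Called genes numbered 4, but 7 with no low-count filter, 2 without control replicate 1 and cKO replicate 1 together, 2 with the replicate block, and 0 to 3 with 1 library left out (0 without control replicate 2 or cKO replicate 2). The median of the 7 members was -0.12 with GC-content offsets and -0.07 to 0.01 with 1 library left out. The replicate numbers did not pair the libraries: deviations of same-numbered libraries correlated at -0.0831, 0.0137, 0.114 and -0.104, and 2 of 8 libraries correlated best with their own number. The block changed no call of a member other than Nxph1. Signs turned without control replicate 1 and cKO replicate 1 together for Nxph3 (0.004), Nxph2 (0.01), Lin7c (0.00054), Cask (0.00075) and Adam10 (0.01). They turned with GC-content offsets for Nlgn2 (-0.06), Sdcbp (0.01) and Slc32a1 (-0.01), and with library totals for Nrxn2 (0.01) and Lhx6 (0.01). With 1 library left out, Nxph3 ranged from -0.07 to 0.01, Nrxn2 from -0.05 to 0.04, Nlgn2 from -0.01 to 0.08, Mmp9 from -0.29 to 0.0043 and Lhx6 from -0.05 to 0.04. The cause of these changes was not tested. Nxph2 and Mmp9 had 62 or fewer reads in each library, which limits their precision. For Nxph4 the spread among libraries, 14.4% in control and 13.8% in cKO, was wider than the 8.89% and 8% that counting gives.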

Other observations

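In 10 lists of markers of other cells and regions edgeR called 0 listed genes, and the summed levels of the groups overlapped in each. The 11 excitatory neuron markers had a median log2 fold change of -0.03, 7 tested cerebellar markers -0.05, 8 striatal -0.04, 7 thalamic -0.09, 9 hypothalamic 0.01, 8 astrocyte -0.0046, 7 oligodendrocyte -0.01, 6 precursor 0.01, 7 microglial 0.08 and 6 endothelial -0.12. Single genes reached an unadjusted p under 0.05: Rora, a nuclear receptor of thalamic neurons, at -0.24, Prkcd at -0.16, the excitatory vesicle gene Sv2b at -0.14, the glutamate transporter gene Slc1a2 at -0.20, P2ry12 at -0.26, the endothelial receptor gene Flt1 at -0.17, and Gfap, the astrocyte filament, at 0.33. Without both libraries numbered 1 these stood at -0.14, -0.20, -0.07, -0.06, -0.21, -0.09 and 0.40, in the same order. Of these 7 genes, 0 passed the adjusted edgeR test. Over all genes tested, 4.78% reached an unadjusted edgeR p under 0.05, 1.91% as lower and 2.87% as higher in cKO. Outside the lists, Aqp4, the water channel of astrocytes, was called higher in cKO at 0.46 (edgeR adjusted p 0.0104), as was the metalloproteinase gene Mmp14 at 0.50 (edgeR adjusted p 0.0333). Both were named after their values were seen.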
